A study of Mus musculus with 3 samples.

Results

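The forkhead (Fox) genes encode transcription factors that share a winged-helix DNA-binding domain, and 40 of them were examined here among 22350 mouse protein-coding genes. They were taken from a list of symbols by family membership, and they lay on 15 chromosomes. ChIP-Seq regions from mouse embryonic stem cells (ESCs) were counted at a gene when at least 1 bp fell within 2 kb of any of its annotated transcript starts. The length of sequence inside those regions, summed over the merged windows of a gene, is called here its called bases. All 40 genes were found in the annotation, 39 under the listed symbol and Foxf1 under an older one. The annotation held 39 as protein-coding and Foxl1 as a pseudogene.

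The series held 3 libraries, 1 per group. The tagged forms, denoted H2A.Z WT (unaltered) and H2A.Z AP3 (mutant), were YFP fusions expressed from a CMV promoter under rtTA control with doxycycline at 1 µg/ml in YFP-sorted ESCs whose endogenous H2A.Z was depleted by hairpins against its 3′ untranslated region, and both were precipitated with an antibody against GFP. H2A.Z AP3 carried the substitutions G92N, D97N and S98K, which put residues of H2A into the acidic patch of H2A.Z. The H3K27me3 library was labelled wild type in genotype, so H3K27me3 in cells with H2A.Z AP3 was not analysed here. The labels give V6.5 as the strain of all 3 samples, whereas the treatment text derives the transgenic lines from KH2 ESCs. The cells had been grown on irradiated fibroblast feeders, with feeders left out at the final passage. Each library was deposited as lists of enriched regions with a start and an end and no height, and the read depth of the libraries is unknown. With no replicates, no test between groups was possible, and the 95% Wilson intervals below cover counting error alone and treat genes as independent.

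H2A.Z is a variant of histone H2A placed in nucleosomes on either side of promoters, and the acidic patch is a charged surface of the nucleosome that other proteins contact. H3K27me3 is the mark laid down by Polycomb repressive complex 2, which in ESCs covers CpG-rich promoters of silent developmental regulators. Fox factors direct the formation of many tissues. Foxa proteins open chromatin in endoderm, Foxc and Foxf proteins act in mesoderm, FoxO proteins respond to insulin signalling, and Foxm1 drives genes of mitosis.

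In all, 36 of the 40 forkhead genes had an H2A.Z WT region (90%, interval 76.9% to 96%), against 61.7% of all protein-coding genes. An H3K27me3 region was found at 27 (67.5%, 52% to 79.9%), against 18.2% of all genes. An H2A.Z AP3 region was found at 18 (45%, 30.7% to 60.2%), against 23.2%. Each of these shares lay above that of all genes, with the latter outside the interval. Both H2A.Z WT and H3K27me3 were present at 26 forkhead genes (65%), against 17.3% of all genes, and regions of all 3 libraries were present at 16 (40%), against 7.9%. No region of any library was found at 3 forkhead genes (7.5%), against 36.3% of all genes. These were Foxk1, Foxk2 and Foxn3, which were placed in the group of broadly expressed genes.

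The H2A.Z AP3 list was the shorter, with 14599 regions over 3.5 Mb, compared with 78359 regions over 28.3 Mb for H2A.Z WT and 16970 regions over 9.32 Mb for H3K27me3. Since reads were not counted, fewer H2A.Z AP3 regions and a shallower library cannot be told apart. Chromosomes 6 and 8 were dense in H2A.Z AP3 regions, with 14.7 per Mb against 4.74 on the other autosomes, and in H2A.Z WT regions, with 52.9 against 28.7, but not in H3K27me3 regions, with 6.31 against 6.84. The 8 members on these chromosomes were Foxc2, Foxf1, Foxi3, Foxj2, Foxl1, Foxm1, Foxp1 and Foxp2, and 7 of them had an H2A.Z AP3 region (87.5%, against 46.8% of all genes there). Without them, 11 of 32 forkhead genes had one (34.4%, 20.4% to 51.7%), against 20.5% of all genes off these chromosomes, a value at the lower edge of the interval. The corresponding counts were 28 of 32 for H2A.Z WT (87.5%, against 60.5% of all genes there) and 21 of 32 for H3K27me3 (65.6%, against 18.1%). The part of these chromosomes in the H2A.Z AP3 count was not tested beyond this.

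**Figure D1:**
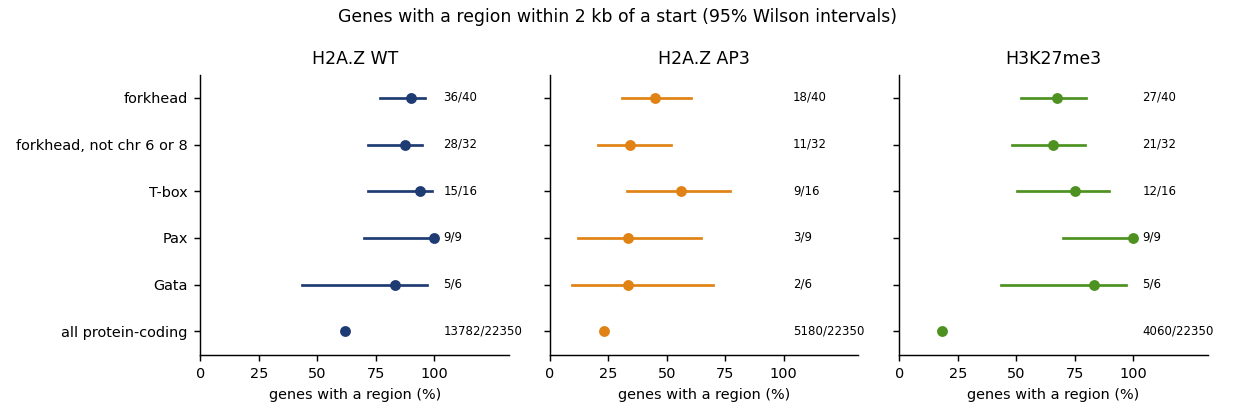
Percent of genes (x axis) with a region within 2 kb of a start, for forkhead genes, forkhead genes off chromosomes 6 and 8, T-box, Pax and Gata genes and all protein-coding genes (rows), in each library (panels). Points are shares, lines are 95% Wilson intervals and the counts stand at the right; forkhead genes reached 36/40, 18/40 and 27/40 against 61.7%, 23.2% and 18.2% of all genes.

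The 4 shortest H2A.Z AP3 regions at forkhead genes were single bins of 25 bp, the unit in which the study called enrichment. They are shown because they are the whole H2A.Z AP3 signal at Foxa2 and Foxf2, and because each one lay inside an H2A.Z WT region. The sequences are read 5′ to 3′ on the strand of the gene from mm9, with CpG dinucleotides in capitals.
Foxa2: catgtaCGggcaggcCGgcctgagc
Foxa3: ggagtCGggggacaaggtttgggag
Foxe1: CGCGcaCGcaCGcaCGcacacacac
Foxf2: tcctcttctaactcCGtcagCGcct
The Foxa2 bin (chr2:147870201-147870225, minus strand) lay 2480 to 2504 bp after the most upstream start, in coding sequence, and inside an H3K27me3 region. The Foxf2 bin (chr13:31718126-31718150, plus strand) lay 441 to 465 bp after the start, also in coding sequence and inside an H3K27me3 region. The Foxe1 bin (chr4:46355701-46355725, plus strand) lay upstream of the gene, at -780 to -756 bp from its start, and within H3K27me3. The Foxa3 bin (chr7:19608551-19608575, minus strand) lay in an intron, 312 to 336 bp after the start, outside H3K27me3. CpG counts in these bins were 2 for Foxa2, 1 for Foxa3, 5 for Foxe1 and 2 for Foxf2. None of the 4 held a region of the stricter 1e-12 list.

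The study used Foxa2 as a site for ChIP followed by PCR, and its primer pair matched chromosome 2 of mm9 at a single place each.
Forward primer: ctagcccatctcctgctgtc
Reverse primer: gtggcttgatcccaggtct
The product (chr2:147872231-147872365) was 135 bp long and lay in an intron, 340 to 474 bp after the most upstream Foxa2 start. All 135 bp fell inside an H2A.Z WT region and all 135 bp inside an H3K27me3 region, and 0 bp fell inside an H2A.Z AP3 region. The sole H2A.Z AP3 bin at the gene thus lay further downstream than the product.

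By role, the counts of each group are to be read against 61.7% of all genes with H2A.Z WT, 18.2% with H3K27me3 and 23.2% with H2A.Z AP3, and differences between the groups were not tested. The 3 endoderm pioneer factor genes all had H2A.Z WT and H3K27me3, and 2 had H2A.Z AP3. Foxa2, which is needed for definitive endoderm and the floor plate, had 1930 bp of H2A.Z WT, 25 bp of H2A.Z AP3 and 5031 bp of H3K27me3. This was the longest H3K27me3 cover of the family, over a merged window of 5506 bp from 4 starts. Foxa3, a liver and gut factor, had 1125, 225 and 300 bp in the same order, and another protein-coding gene starts 839 bp from it, so that these regions cannot be assigned to one of the pair. Foxa1 had 775 bp of H2A.Z WT, 0 bp of H2A.Z AP3 and 1683 bp of H3K27me3.

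All 8 genes of mesoderm and mesenchyme had H2A.Z WT, 7 had H3K27me3 and 5 had H2A.Z AP3. Foxl1, expressed in gut mesenchyme, had the most H2A.Z AP3 bases of the family, with 1650 bp of H2A.Z WT, 1100 bp of H2A.Z AP3 and 3411 bp of H3K27me3. It lies on chromosome 8, dense in H2A.Z AP3, and in the 1e-12 list it came second to Foxd4, with 550 bp against 575 bp. Foxf1, required in lateral plate mesoderm and lung mesenchyme, had 2639, 575 and 2714 bp, the most H2A.Z WT of any member in the 1e-09 list. In the 1e-12 list it had 1865 bp, below the 2146 bp of Foxc2 and the 2125 bp of Foxs1. Foxc1, which acts in the eye, skull and vessels, had 750 bp of H2A.Z WT, 600 bp of H2A.Z AP3 and 2226 bp of H3K27me3. At Foxc1 the H2A.Z AP3 cover therefore came to 80% of the H2A.Z WT cover, the highest ratio among the 40 over merged windows. At the most upstream start alone, Foxp1 had more H2A.Z AP3 than H2A.Z WT, with 625 bp against 350 bp. Foxc2, a close relative of Foxc1 and a factor of lymphatic vessels, differed, with 2246, 50 and 2901 bp, or 2.23%. Foxf2, a factor of palate and gut mesenchyme, had 1075, 25 and 2810 bp. The members without H2A.Z AP3 here were Foxd1 (1200 bp of H2A.Z WT), Foxd2 (1875 bp) and Foxs1 (2175 bp). Foxs1 had a single 2175-bp H2A.Z WT region, the longest at any forkhead gene, with no H3K27me3 and no H2A.Z AP3.

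All 5 neural genes had H2A.Z WT and H3K27me3, and 4 had H2A.Z AP3. Foxd4, expressed in early neural ectoderm, had 1575 bp of H2A.Z WT, 1050 bp of H2A.Z AP3 and 2201 bp of H3K27me3. Foxb2 had 1750, 475 and 3576 bp, and Foxb1, a factor of the hypothalamus and hindbrain, had 1850, 50 and 3397 bp. The pair thus had like lengths of H2A.Z WT and H3K27me3 and differed in H2A.Z AP3. Foxp2, known for its role in vocal and speech circuits, had 2125, 425 and 1225 bp over 15 starts. Foxn4, which specifies retinal amacrine cells, had 1100 bp of H2A.Z WT and 450 bp of H3K27me3 with 0 bp of H2A.Z AP3.

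Of the 7 genes of ectoderm, placodes and epithelium, all had H2A.Z WT, 5 had H3K27me3 and 4 had H2A.Z AP3. Foxe1, a thyroid factor, had 1881 bp of H2A.Z WT, 250 bp of H2A.Z AP3 and 2451 bp of H3K27me3. Foxi3, a factor of placodes, teeth and hair, had 1150, 225 and 1975 bp. Foxq1, which acts in hair, had 2400, 125 and 1850 bp, with another gene's start 1163 bp away. Foxn1, the thymic epithelium factor mutated in nude mice, had 1275 bp of H2A.Z WT and 325 bp of H2A.Z AP3 with no H3K27me3. The lens factor Foxe3 showed the opposite makeup, with 575 bp of H2A.Z WT, no H2A.Z AP3 and 3276 bp of H3K27me3. Foxi1 and Foxi2 had 400 and 1200 bp of H2A.Z WT, no H2A.Z AP3, and 0 and 1975 bp of H3K27me3.

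Among cilia, gonad and germline genes, Foxl2, the ovarian granulosa cell factor, had 1950 bp of H2A.Z WT, 400 bp of H2A.Z AP3 and 3225 bp of H3K27me3. One of its H3K27me3 regions was 5300 bp long, the longest at any member. Foxj1, the regulator of motile cilia, was the 1 forkhead gene with H3K27me3 (1150 bp) and no H2A.Z WT region. Foxr1 had 675 bp of H2A.Z WT alone. Of the ESC and early embryo regulators, Foxd3, which acts in the epiblast and neural crest, had 1775 bp of H2A.Z WT and 225 bp of H3K27me3, and Foxh1, the Smad partner in Nodal signalling, had a single 125-bp H2A.Z WT region near the edge of its window. Neither had H2A.Z AP3.

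The 3 FoxO genes had 550 to 725 bp of H2A.Z WT and no H2A.Z AP3, and H3K27me3 reached 1797 bp at Foxo6, 75 bp at Foxo1 and 0 bp at Foxo3. The 9 broadly expressed genes had H2A.Z WT at 6 (66.7%) and H2A.Z AP3 and H3K27me3 at 2 each (22.2%), near the 61.7%, 23.2% and 18.2% of all genes. Foxp1 had 1600 bp of H2A.Z WT and 750 bp of H2A.Z AP3 without H3K27me3, over 10 starts and a merged window of 20786 bp. Within 2 kb of its most upstream start it had 350 bp of H2A.Z WT and 625 bp of H2A.Z AP3. Foxj2 had 1025, 550 and 25 bp in the 3 libraries. Foxm1, Foxn2, Foxj3 and Foxp4 had 650, 250, 125 and 500 bp of H2A.Z WT and no H2A.Z AP3, with 100 bp of H3K27me3 at Foxp4. Foxm1 shares its promoter with another protein-coding gene that starts 56 bp away. A neighbour of this kind within 2 kb was found at 5 members, which were Foxa3, Foxh1, Foxj3, Foxm1 and Foxq1.

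**Figure D2:**
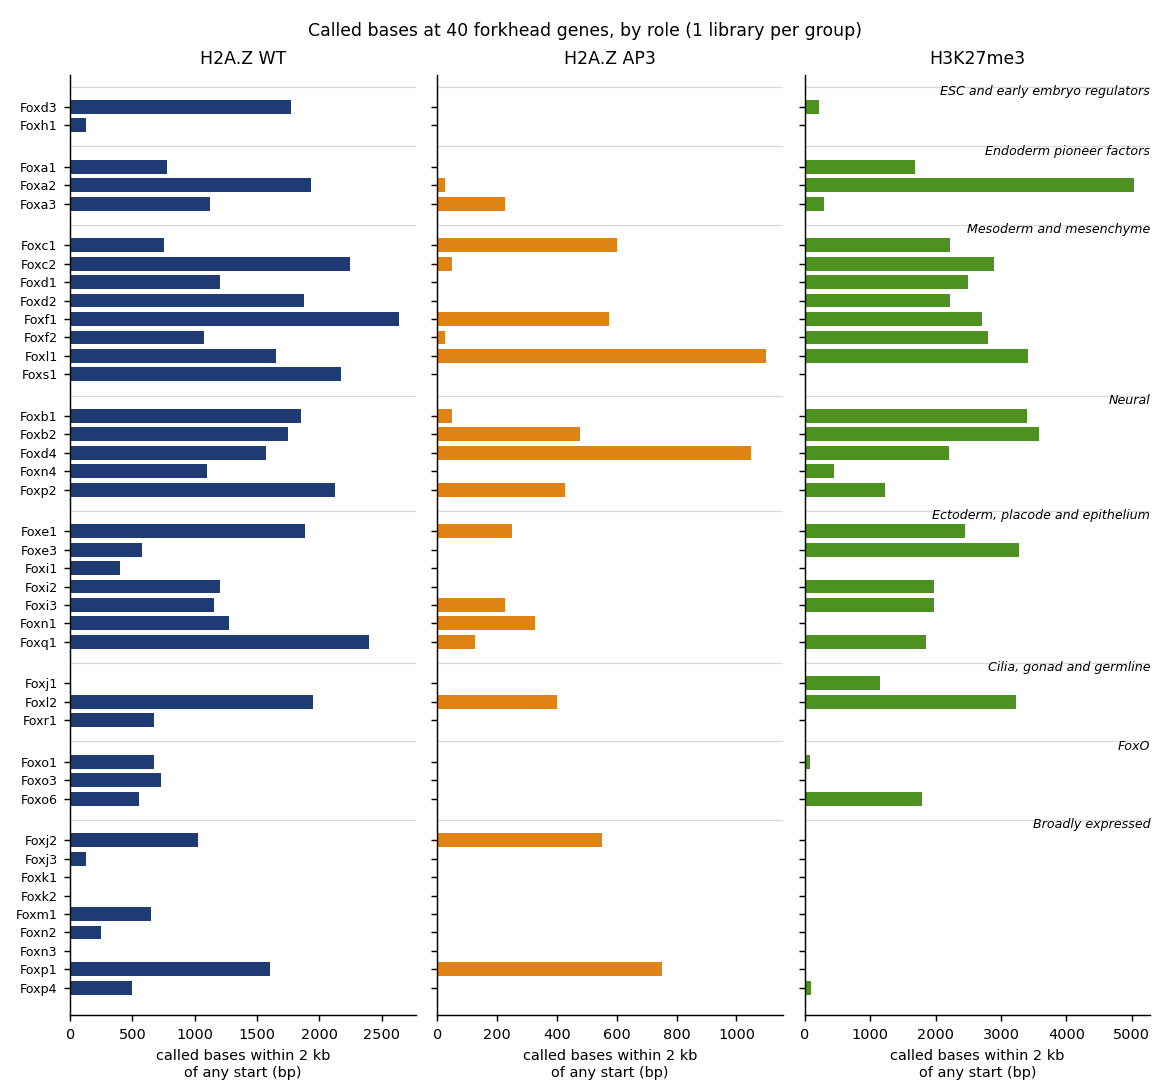
Called bases in bp (x axes, each from 0 and on its own scale) at each of the 40 forkhead genes (rows, grouped by role) in each of the 3 libraries (panels), 1 library per group. H2A.Z WT bars reach 2639 bp at Foxf1, H2A.Z AP3 bars 1100 bp at Foxl1 and H3K27me3 bars 5031 bp at Foxa2, whereas the FoxO genes have no H2A.Z AP3 bar.

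H2A.Z AP3 was then compared between forkhead genes with and without H3K27me3. Of the 26 genes with both H2A.Z WT and H3K27me3, 16 had H2A.Z AP3 (61.5%, 42.5% to 77.6%), against 45.7% of all genes of that class. Of the 10 with H2A.Z WT and no H3K27me3, 2 had it (20%, 5.67% to 51%), against 31.5%. These were Foxn1 and Foxp1. The values for all genes lay inside both intervals, so that no departure from them was detectable at this number of genes. Off chromosomes 6 and 8, the counts were 10 of 20 (50%, 29.9% to 70.1%) and 1 of 8 (12.5%, 2.24% to 47.1%), against 41.6% and 28.1% of all genes there, again inside both intervals. Over all forkhead genes with H2A.Z WT, 18 of 36 had H2A.Z AP3 (50%, 34.5% to 65.5%). The 35.5% of all genes with H2A.Z WT lay inside this interval too. Off chromosomes 6 and 8 the count was 11 of 28 (39.3%, 23.6% to 57.6%), against 31.9%, again inside.

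H2A.Z WT cover differed with the presence of H3K27me3, with overlap between the classes. The median H2A.Z WT cover was 1387.5 bp at the 26 forkhead genes with both, and 662.5 bp at the 10 with H2A.Z WT alone, with ranges of 500 to 2639 bp and 125 to 2175 bp. For all protein-coding genes of these classes the medians were 1100 and 550 bp. H3K27me3 had a median of 2213.5 bp at the 26 genes, against 1050 bp at all genes with both. Among the 26, the 16 with H2A.Z AP3 had medians of 1800 bp of H2A.Z WT and 2582.5 bp of H3K27me3, and the 10 without had 937.5 and 1740 bp. The H2A.Z WT ranges were 750 to 2639 bp and 500 to 1875 bp and overlapped. All genes of these classes had H2A.Z WT medians of 1375 and 925 bp.

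H2A.Z AP3 was found mostly where H2A.Z WT was long. It was called at 1 of the 13 forkhead genes with an H2A.Z WT cover under 1 kb, which was Foxc1, at 13 of 18 with 1 kb or more but under 2 kb, and at 4 of 5 with 2 kb or more. The shares for all protein-coding genes in these ranges were 27.9%, 49.8% and 68%. Foxs1 was the gene with over 2 kb of H2A.Z WT and no H2A.Z AP3. These ranges rest on merged windows and were not split by chromosome. On chromosomes 6 and 8, dense in regions of both forms, the 7 members with H2A.Z AP3 all had at least 1025 bp of H2A.Z WT. At the most upstream start alone, H2A.Z WT cover was 350 bp at Foxp1, 655 bp at Foxa2 and 1825 bp at Foxp2.

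The 30 H2A.Z AP3 regions at forkhead genes had a median length of 200 bp and ranged from 25 to 750 bp, whereas the 76 H2A.Z WT regions had a median of 500 bp and the 76 H3K27me3 regions one of 575 bp. Of the 30, 29 touched an H2A.Z WT region and 21 an H3K27me3 region. By length, 94.8% of H2A.Z AP3 bases lay in H2A.Z WT regions, against 80% at all genes, and 62.6% lay in H3K27me3, against 16.8%. H2A.Z WT bases lay in H3K27me3 to 53.1%, against 17%. H3K27me3 was called at more of the forkhead genes, which enters both contrasts. Among genes with both H2A.Z WT and H3K27me3, the shares in H3K27me3 were 73.6% against 42.8% for H2A.Z AP3 bases. For H2A.Z WT bases they were 64.5% against 39.2%. H3K27me3 also covered more of the windows in this class, 39% at forkhead genes against 17.1% at all genes, which enters these contrasts as well. The sum of H2A.Z AP3 bases came to 15.9% of that of H2A.Z WT at forkhead genes and to 14.3% at all genes. Off chromosomes 6 and 8 the values were 11% and 10.7%, and on them 28.1% and 33.3%, so this ratio was near that of all genes in each part. Cover of at least 100 bp of H2A.Z AP3 was found at 14 forkhead genes, and Foxa2, Foxb1, Foxc2 and Foxf2 had 50 bp or less. The share of all genes under this rule is not given, so the count of 14 has no background. Of the H2A.Z AP3 bases, 42.3% lay in coding exons, 11.4% in untranslated exon sequence, 8.94% in other exons, 4.03% in introns and 33.4% outside the gene. Neither H2A.Z WT bases, the windows nor all genes were split in this way, so these shares have no background.

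**Figure D3:**
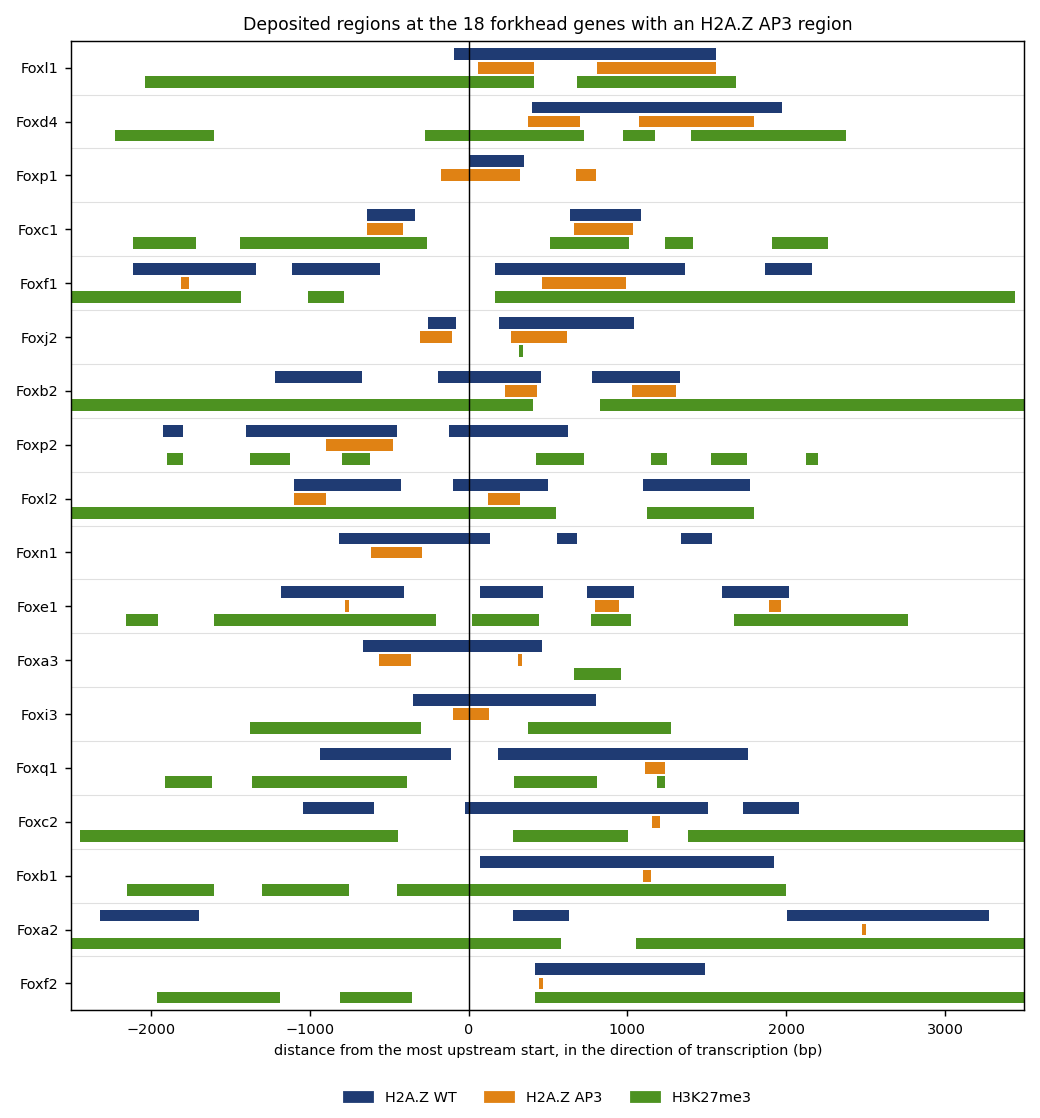
Regions of the 3 libraries (coloured bars) at the 18 forkhead genes with an H2A.Z AP3 region, ordered by H2A.Z AP3 bases, against distance in bp from the most upstream start (x axis, direction of transcription to the right, cut at the axis ends). H2A.Z AP3 bars lie within or across H2A.Z WT bars at all genes except for 1 separate bar at Foxp1, and Foxn1 and Foxp1 have no H3K27me3 bar.

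Around the most upstream start, H2A.Z WT lay more on the downstream side, with 64.2% of its bases after the start at forkhead genes and 65.4% at all genes. More H2A.Z WT lay downstream at 24 forkhead genes and upstream at 12. For H2A.Z AP3 the downstream share was 72.8%, against 57.1%. Among forkhead genes with H3K27me3 it was 76.7%, against 68.1% for all genes of that class. Both shares rest in large part on Foxl1 and Foxd4, which have H3K27me3. Of 5150 downstream bp of H2A.Z AP3 at forkhead genes, Foxl1 held 1100 bp and Foxd4 1050 bp, with 0 bp upstream at either. The shares without these genes were not computed, so no departure from all genes is drawn from them. H3K27me3 itself was split evenly, with 50.5% downstream, against 61.9% for all genes. By bin, H2A.Z WT was called at 79.1% of the 27 forkhead genes with H3K27me3 from 400 to 424 bp after the start and at 36.3% just before it. All genes with H3K27me3 reached 58.2% at 275 to 299 bp, with 44.1% just before the start. H2A.Z AP3 was called at most at 18.5% of the 27 forkhead genes, from 1175 to 1199 bp after the start, against 8.85% for all genes of the class at their highest bin. The genes called there were Foxb2, Foxc2, Foxd4, Foxl1 and Foxq1, of which Foxc2 and Foxl1 lie on chromosome 8. H3K27me3 was called just before the start at 29.6% and reached 63% in the bin at -1825 to -1801 bp. All genes of the class also dipped at the start, with 17.1% just before it and 42.5% at most. Each highest bin was picked from its own profile, and with few genes such a maximum tends to lie higher. The differences between highest bins are therefore a description alone.

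**Figure D4:**
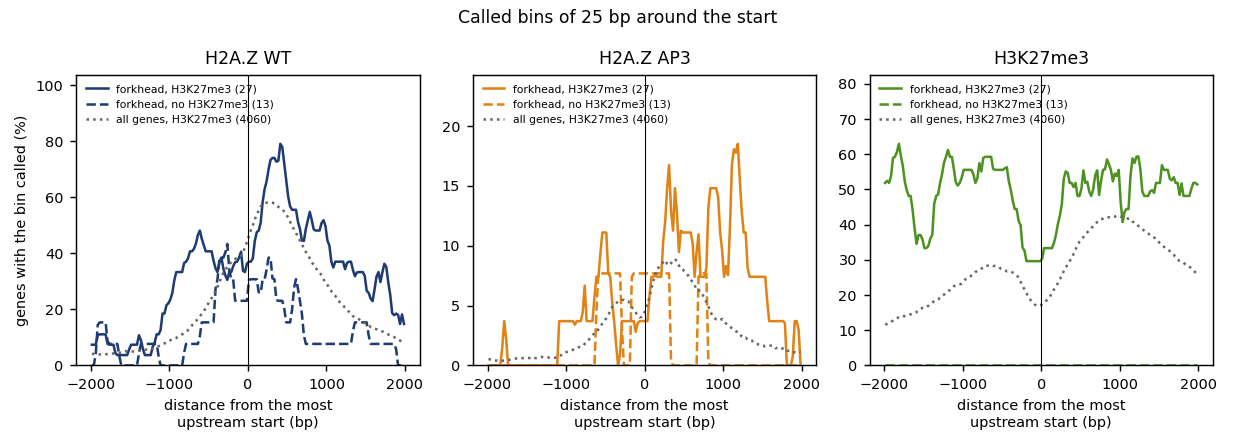
Percent of genes with a called 25-bp bin (y axis) against distance in bp from the most upstream start (x axis) in each library (panels), for forkhead genes with H3K27me3 (solid), without H3K27me3 (dashed) and all protein-coding genes with H3K27me3 (dotted grey). The solid H2A.Z WT line reaches 79.1% after the start, the solid H2A.Z AP3 line 18.5%, and the H3K27me3 line dips at the start; the dashed H3K27me3 line is at 0 by the choice of the class.

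Several forkhead genes lie side by side, and 3 groups had members within 200 kb of each other. Over the 54644-bp interval of Foxf1, Foxc2 and Foxl1 on chromosome 8, with 5 kb added on each side, H2A.Z WT covered 21.6%, H2A.Z AP3 5.45% and H3K27me3 39%. Over the 262466 bp of Foxq1, Foxf2 and Foxc1 on chromosome 13, the values were 4.11%, 0.619% and 9.09%. Foxd2 and Foxe3 on chromosome 4 lie within an interval of 29773 bp, of which H3K27me3 covered 53.5% and H2A.Z WT 11.5%, in 13 and 9 regions, and H2A.Z AP3 covered 0%. In the 1e-09 list, the group with the densest H3K27me3 was thus the one with no H2A.Z AP3 region, whereas the 1e-12 list held one of 25 bp at Foxd2. Percent cover of an interval also depends on how much sequence lies between its genes. A relation between the marks was not tested over these 3 groups. H2A.Z AP3 bases came to 25.3% of H2A.Z WT bases in the chromosome 8 group, which lies on a chromosome dense in H2A.Z AP3, and to 15% in the chromosome 13 group.

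**Figure D5:**
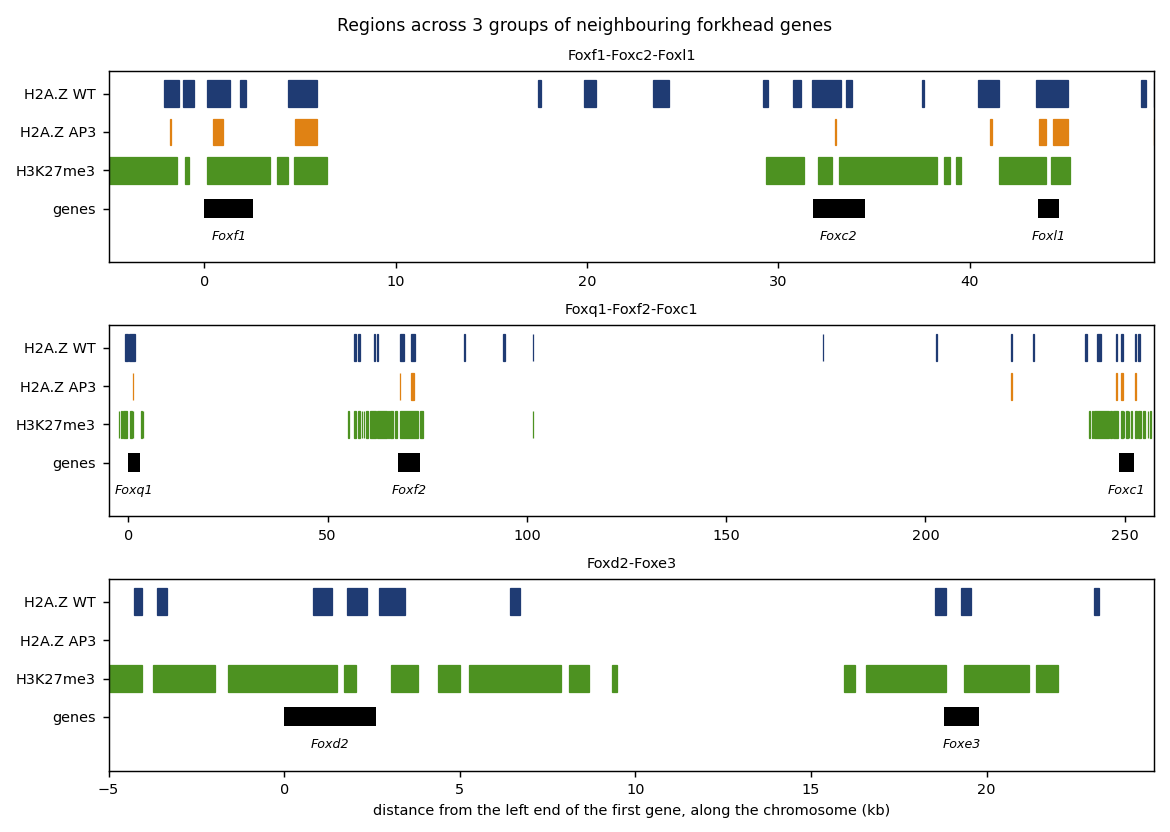
Regions of each library and gene bodies (rows) along 3 groups of neighbouring forkhead genes, against distance in kb from the left end of the first gene (x axis, a different scale in each panel; outlines make the narrowest bars wider than to scale). In these 1e-09 lists the Foxd2 and Foxe3 group has no H2A.Z AP3 bar and H3K27me3 covers 53.5% of it, and the other groups have 8 and 7 H2A.Z AP3 regions.

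Forkhead genes with H3K27me3 had few exons and CpG-rich starts. Of the 27, 23 had 3 exons or fewer, compared with 3 of the 13 without H3K27me3, and the medians were 2 and 7 exons. All protein-coding genes with H3K27me3 had a median of 8 exons, and those without it 6, the opposite order. Within 500 bp of the most upstream start there was a median of 79 CpG dinucleotides (the letters CG, counted once for both strands) at the 27 genes and 32 at the 13, against 59 and 32 at all genes with and without H3K27me3. The ranges of 23 to 128 and 12 to 135 overlapped. The 18 genes with H2A.Z AP3 had a median of 74.5, and the 18 with H2A.Z WT and no H2A.Z AP3 had 95.5.

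The T-box, Pax and Gata families, which also encode developmental transcription factors, were the closest for comparison. H2A.Z WT was found at 15 of 16 T-box, 9 of 9 Pax and 5 of 6 Gata genes, H3K27me3 at 12, 9 and 5, and H2A.Z AP3 at 9, 3 and 2. The interval of each share overlapped that of the forkhead genes. H2A.Z AP3 bases as a percent of H2A.Z WT bases were 17.1% at T-box, 3.36% at Pax and 6.19% at Gata genes, beside 15.9% at forkhead genes. Off chromosomes 6 and 8 the forkhead value was 11%, and the other families were not split in this way.

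Genes that act with Fox factors were counted from lists set by function, to be read against the 61.7%, 18.2% and 23.2% of all genes with H2A.Z WT, H3K27me3 and H2A.Z AP3. The H2A.Z AP3 counts of the Nodal and FoxO lists and the H2A.Z WT count of the Foxm1 list were near these shares. Of 15 genes of Nodal signalling, the pathway of Foxh1, 12 had H2A.Z WT, 6 had H3K27me3 and 4 had H2A.Z AP3, among them Smad3 (25 bp), Gsc (175 bp) and Mixl1 (375 bp). Of 13 endoderm genes around Foxa2, 10 had H2A.Z WT, 8 had H3K27me3 and 4 had H2A.Z AP3, among them the regulators Gata4 (275 bp) and Eomes (175 bp) and the apolipoprotein gene Apoa1 (1500 bp). Of 16 regulators and targets of FoxO, 13 had H2A.Z WT, 4 had H3K27me3 and 4 had H2A.Z AP3, with 650 bp at the insulin receptor gene Insr, 475 bp at the pro-apoptotic Bcl2l11, 325 bp at the kinase gene Pdpk1 and 100 bp at the cell cycle inhibitor Cdkn1b. None of these 4 had H3K27me3, and its median cover at all 5180 protein-coding genes with H2A.Z AP3 was also 0 bp. Of 10 targets of Foxm1, 6 had H2A.Z WT, 0 had H3K27me3 and 1, the mitotic kinase gene Nek2, had H2A.Z AP3 (125 bp).

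Of 9 ESC marker genes, 8 had no region in any library, among them Pou5f1, Nanog and Sox2, against 36.3% of all genes. The exception was Esrrb, with 1375 bp of H2A.Z WT and 2908 bp of H3K27me3. H3K27me3 was thus found at 1 of the 9, against 18.2% of all genes. These counts cannot check the labelled cell type, because the study reported H2A.Z at active promoters of ESCs as well as at silent ones. Of 8 fibroblast genes that could mark feeder cells, 6 had regions in all 3 libraries, against 7.9% of all genes, with at most 2525 bp of H3K27me3 and 200 bp of H2A.Z AP3, and Col3a1 and Postn had none. The part of feeder cells in the values of forkhead genes was not tested.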

How the data were processed

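ChIP-Seq was performed by the authors on mouse ESCs in 3 libraries, 1 per group. Per the submitters' processing notes and methods, reads were aligned to mm9 with Bowtie 0.12.3, allocated to bins of 25 bp, and called enriched with a Poisson model and a minimal fold over input. The deposited files are lists of region starts and ends at 1e-09, used here unless stated, and at 1e-12. They hold no height or p-value, and depth is unknown. Samples were grouped by genotype and antibody labels, and 0 columns of samples were left out.

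Transcript starts were those of GENCODE vM1 on mm9. Called bases within 2 kb were summed over merged windows of 4001 to 23044 bp per member, with Python 3.11.15, NumPy 2.4.6, Matplotlib 3.10.9 and samtools 1.23.1. Interval code was tested on simulated data. Shares carry 95% Wilson intervals. Values in all libraries were given for each member with H2A.Z AP3, the 3 with most bases per library and Foxa2, and every other member was counted in its role group. In the pathway lists, genes with H2A.Z AP3 were named, except for some that are not reported here. The members, lists and rules were chosen with earlier results of these data known. Alternatives changed the list, window, starts, minimum length, joining and chromosomes.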

Additional observations from a re-analysis of the deposited data

Results flagged for a closer look

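The main comparisons used the 1e-09 lists, and the stricter 1e-12 lists served as a check of some of them. The 1e-12 lists should be contained in the 1e-09 lists, yet at 3 forkhead genes they held H2A.Z AP3 regions with no counterpart there. Foxk1, which had no region of any library at 1e-09, had 225 bp of H2A.Z AP3 in regions of 125 and 100 bp. Foxd2 had 25 bp and Foxn4 had 25 bp. The 1e-12 list also held a 25-bp H2A.Z WT region at Foxn3, again a gene with no region at 1e-09. The same count over all genes is not given here, so these values have no background beside them, and the cause was not tested.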

How the results depend on the processing

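Each of 10 summaries was recomputed under 12 alternatives, of which 10 were planned and 2, leaving out Foxl1 and keeping the 31 genes whose starts lie within 100 bp of each other, were chosen after seeing the data. Of 120 values, 111 stayed within 1.5 times the main value or, for the share with H2A.Z AP3 among genes with H2A.Z WT, inside its interval (38.9% to 54.1% over the alternatives). Some alternatives, such as leaving out Foxl1 alone, could move a count very little, so this tally does not measure robustness. With the 1e-12 lists, H2A.Z AP3 bases fell to 9.83% of H2A.Z WT bases. With a window of 5 kb, the median H2A.Z WT cover of all 27 genes with H3K27me3, Foxj1 included, was 2025 bp, against 1200 bp within 2 kb. For genes without H3K27me3, for which the median over 13 genes was 400 bp, it was 650 bp when at least 100 bp was required, by region or by window, and 250 bp without chromosomes 6 and 8. Leaving out these chromosomes removes 8 genes, and gave 11 genes with H2A.Z AP3, 10 of them with and 1 without H3K27me3. The latter count was also 1 among the 31 genes. H2A.Z AP3 calls were lost at Foxa2, Foxb1, Foxc2 and Foxf2 when at least 100 bp was required, and at these and Foxn1 with the 1e-12 list. Forkhead genes were not compared with all genes under these rules. No paired analysis was possible because each group holds 1 library, and for the same reason no library could be left out. Depth, unknown here, limits which weak regions could be called.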
